A study of Mus musculus with 6 samples.

Results

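Proteasome and COP9 signalosome genes were followed on bead arrays of mouse skin papillomas, benign tumours of the epidermis, from mice with and without Atf2, a gene for a DNA-binding regulator related to CREB. The members were the probes whose annotated symbol was Psma, Psmb, Psmc, Psmd, Psme, Psmf, Psmg or Cops followed by a digit. The rule found 56 of 17658 gene symbols on the array, with 92 of its 46116 probes. Of these, 28 symbols had 1 probe, 20 had 2 and 8 had 3. Psmc3ip, a meiotic recombination factor gene, and Psme3ip1, which encodes a partner of an activator, match the rule's letters without being subunits. Psmf1, Psmg4 and Cops9 were not analysed here.

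The knockout pool was total RNA from papillomas of 3 Atf2 knockout mice, and the wild-type pool was total RNA from papillomas of 2 Atf2 wild-type mice. In both pools the animals were of mixed FVB and C57bl6 descent and about 9 months old when papillomas were present. All had received 1 application of the mutagen DMBA and then the tumour promoter TPA for 30 weeks. The sources used here do not give how the allele was made or in which cells Atf2 was lost. Each pool was hybridised to 3 arrays of 1 chip as technical replicates, so SDs, SEs and p-values measure technical spread between arrays, and the genotype contrast rests on 1 pool each with no replicate check. Genotype, pool and place on the chip cannot be told apart. Every difference is knockout minus wild type. Of 4 Atf2 probes 3 were not above background on any array, and the remaining one read 171, 133 and 103 on the knockout arrays, against 184.5, 176 and 186 on the wild-type arrays. It was lower on each knockout array in raw intensity, but the fitted log2 difference was -0.28 (limma adjusted p = 0.109), so these probes are too dim to check the labels.

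The proteasome is the large protease that degrades proteins tagged with ubiquitin. Its 20S core is a barrel of stacked alpha and beta rings, with the protease sites on the inner face of the beta rings. The 19S cap recognises the tagged protein, removes the ubiquitin and unfolds the chain with a ring of ATPases. The COP9 signalosome is built like the lid of that cap and removes the ubiquitin-like protein NEDD8 from cullin ubiquitin ligases. Both complexes are made in nearly all cells, and in epidermis they take part in the turnover of cell cycle and differentiation regulators.

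Median raw intensity per array ranged over 109.9 to 136 in the knockout pool and 136 to 148 in the wild-type pool. A probe was taken as above background when it exceeded the mode of its array by 3 SDs, and 29.2 to 31.4% of probes did so on the knockout arrays against 32.7 to 34.6% on the wild-type arrays. Of the member probes, 69 were above background on all 6 arrays. The epidermal keratin genes Krt5 and Krt14 were bright in both pools (0.14 and -0.07 in knockout minus wild-type log2 difference). Fibroblast markers were lower, with 3 of 6 tested genes past the threshold described next and a summed raw intensity of 3034 to 4222 on the knockout arrays against 7931 to 8845 on the wild-type arrays. Skeletal muscle markers were lower too, with 2 of 4 past it, and 2 of 3 erythrocyte markers were higher. Of 8 keratinocyte markers 1 was higher past it, Krt10 at 1.52, and 2 were lower, Dsg3 at -1.54 and Sfn at -1.85. Their summed raw intensity was 77613 to 88220.4 on the knockout arrays against 79903 to 82873 on the wild-type arrays. Krt14 gave the largest part of that sum, so it says little about the other markers. Of all tested genes 1.12% were higher and 2.48% lower past the threshold. The part of these cells in the results below was not tested, and in such bulk RNA fewer cells of a type cannot be told apart from less RNA per cell.

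Knockout array 3 stood apart from the other knockout arrays for some members. On the normalized log2 scale it lay at least 0.5 below the mean of knockout arrays 1 and 2 for 6 of 78 tested member probes (7.69%), against 2.17% of all tested probes, and as far above it for 1, against 1.15% of all. The 6 were probes of Psmc3ip, Psmd4, Psmd8, Psme1, Psmg2 and Psmg3. Psmd4, the ubiquitin receptor of the cap, read 5739.9, 5761 and 2968 on the knockout arrays, against 3727, 3345 and 3852 on the wild-type arrays. In raw intensity the value of array 3 lay below every wild-type array, while those of arrays 1 and 2 lay above them all. With the authors' log2 values knockout array 3, at 11.85, lay within the range of the wild-type arrays, 11.58 to 11.86. Its log2 difference was 0.54 (SE 0.15, limma adjusted p = 0.0138) over all arrays and 0.75 without knockout array 3. For Psmg3, which encodes an assembly chaperone of the core, those differences were -0.04 and 0.25, and for the lid subunit gene Psmd8 they were -0.14 and 0.08.

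By fitted differences, many proteasome and signalosome probes were at least 2-fold lower in the knockout pool and no member probe was as much higher. With the authors' deposited log2 values 11 member probes were past the same limits. The falls of some dim probes can only be bounded, as given below. The threshold was a limma adjusted p under 0.05 (Benjamini-Hochberg over all tested probes) together with a log2 difference of at least 1 in size. Tested were the 23058 probes whose mean log2 intensity lay above the median of all probes, which held 78 member probes of 54 genes. The 14 member probes left out were not above background on any array. They include all probes of Psma8 and Psmb11, whose products replace core subunits in testis and thymus. Of the 78 probes 15 were lower past the threshold, or 19.2%, against 3.9% of all tested probes. None was higher past it (0.984% of all tested probes were), although 18 were higher by an unadjusted limma p under 0.05, as were 25.8% of all tested probes. After normalization the arrays of the pools did not overlap for 31 member probes on the lower side (20.6% of all tested probes) and 19 on the higher side (27.8% of all). Among probes above background on all 6 arrays the shares lower were 15.9% of 69 members and 3.98% of all.

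Read gene by gene, the falls were fewer. With each gene represented by its brightest tested probe, 4 of 54 genes were lower past the threshold (7.41%, against 2.48% of 12096 genes) and none was higher (1.12% of all genes were), although 16 were higher and 14 lower at an unadjusted limma p under 0.05 (29.7% and 18.1% of all genes were). The 4 genes were Psma1, Psmc2, Psme4 and Cops7a. Counting a gene when any tested probe passed gave 14 genes (25.9%, against 5.38% of all genes). In the other 10 the brightest probe stayed within the 2-fold limit. Brightness was the mean over all 6 arrays, so a fall in the knockout pool itself made a probe less likely to be chosen. The median log2 difference was 0.09 over the 54 genes and 0.08 over all tested genes, so the brightest probes of the members were centred close to those of all genes. At an adjusted p under 0.05 with no limit on size, 15 genes were higher (24.3% of all genes were) and 13 lower (15.7% of all genes were). The plot of log2 differences by structural group shows each tested probe.

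**Figure D1:**
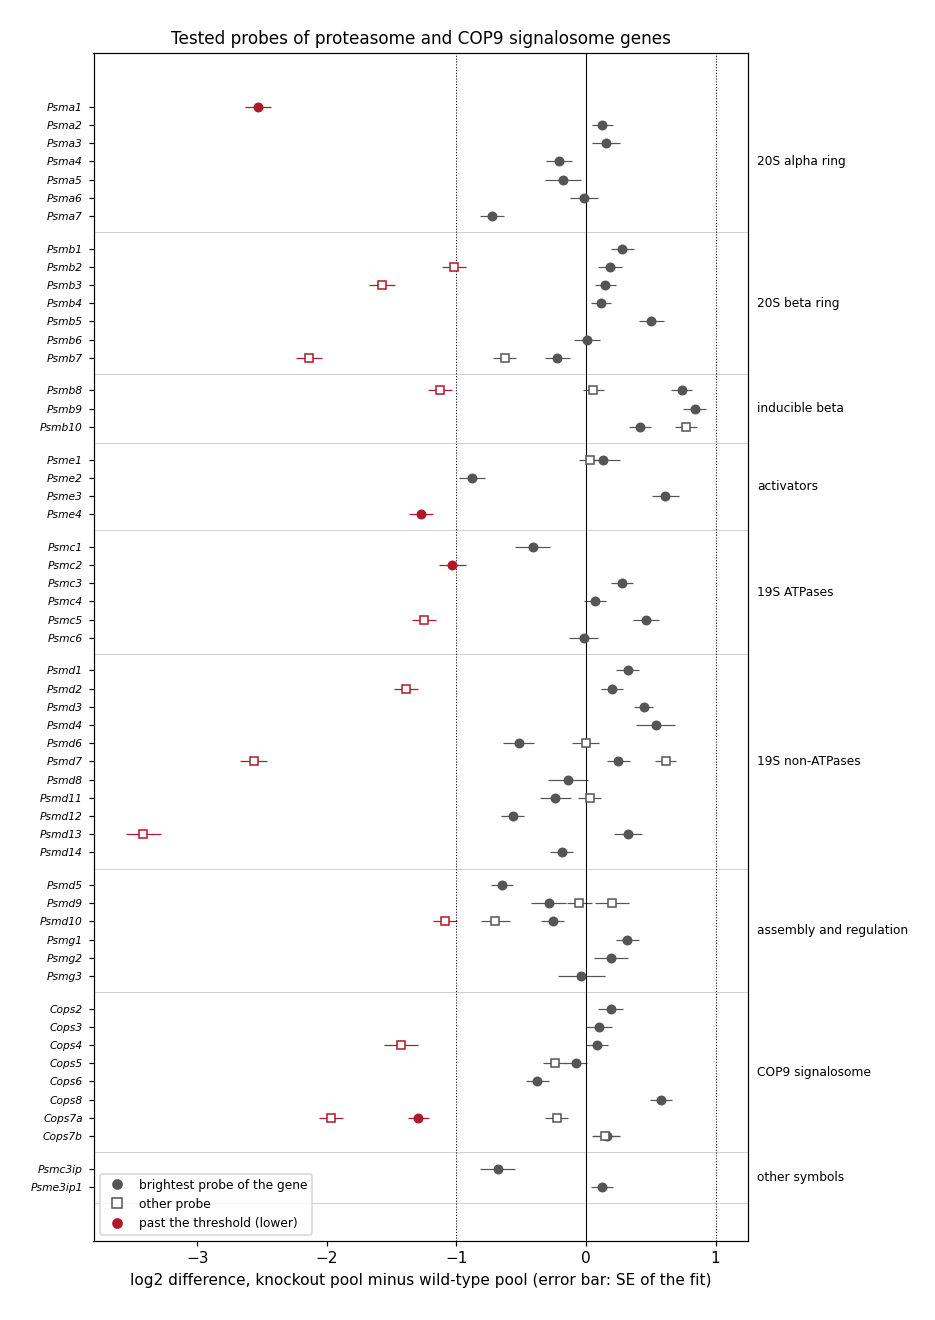
Log2 difference between the knockout and the wild-type pool (x axis, with the SE of the fit as error bars) for the 78 tested probes, 1 row per gene (y axis), by structural group. Filled circles are the brightest probe of each gene and open squares its other probes; the 15 probes past the threshold, in red, all lie on the lower side, and 4 of them are filled.

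The outer alpha ring of the core gates the entry of substrates. Of its 7 tested genes Psma1 alone passed the threshold, and the list's median was -0.18. Probe 380059 of Psma1 read 228, 256 and 213 on the knockout arrays, against 1498, 1429 and 1434 on the wild-type arrays. All knockout arrays lay far below all wild-type arrays, a log2 difference of -2.53 (SE 0.10, limma adjusted p = 4.27e-09). The other Psma1 probe did not exceed background on any of the 6 arrays, so none could be set beside it. The brightest alpha-ring probe, of Psma2, read 13921, 13762 and 11733 on the knockout arrays, against 12781, 12712 and 13714 on the wild-type arrays. Those arrays overlapped between pools (0.13). Psma7 was 0.73 lower on the log2 scale, inside the 2-fold limit, with 1264, 1155 and 1112 on the knockout arrays, against 2251, 2152 and 2214 on the wild-type arrays. Psma3, Psma4 and Psma5 lay between -0.21 and 0.15, and the only Psma6 probe did not exceed background anywhere, so no difference is given for it.

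The beta ring holds the protease sites, and of its 7 tested genes none was past the threshold by the brightest probe. At an unadjusted limma p under 0.05, 2 were higher and 1 lower (29.7% and 18.1% of all genes were). The median log2 difference of the 7 was 0.15. For Psmb5, the chymotrypsin-like subunit, the arrays read 2175, 2117 and 1389 on the knockout arrays, against 1439.8, 1651 and 1470.0 on the wild-type arrays. Knockout arrays 1 and 2 exceeded the wild-type arrays and array 3 was below them before normalization; after it all 3 lay above, and the difference was 0.50 (SE 0.10, limma adjusted p = 0.00135). Psmb6, the caspase-like subunit, was at 0.01 with 6939.8, 6484 and 4307 on the knockout arrays, against 6423, 6293 and 6921 on the wild-type arrays. Its arrays overlapped between pools, and the sign of its difference turned when single arrays were left out. The brightest probe of the group, of the structural subunit gene Psmb4, read 8041, 7671 and 6206 on the knockout arrays, against 7476, 7532 and 7812 on the wild-type arrays and differed by 0.12.

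Other probes of the beta ring genes fell. Psmb7, the trypsin-like subunit, had 3 probes above background on all arrays, and they gave different sizes. Probe 5890647 read 477, 482 and 441 on the knockout arrays, against 2389, 2169 and 2308 on the wild-type arrays, with no overlap between pools and a log2 difference of -2.14 (SE 0.10, limma adjusted p = 1.45e-08). The brightest probe, 102480239, read 2838, 2287 and 2216 on the knockout arrays, against 3173, 3119 and 3439.9 on the wild-type arrays, and its difference of -0.22 did not pass the test (limma adjusted p = 0.0969). The remaining probe lay between them at -0.63. In Psmb3, a structural subunit, probe 106110162 read 1048, 1033 and 1014 on the knockout arrays, against 3567, 3599 and 3244 on the wild-type arrays. It was lower on every knockout array (-1.57, limma adjusted p = 1.82e-07), while the brightest probe, at 6339, 6594 and 5680.4 on the knockout arrays, against 6294, 6484 and 6347 on the wild-type arrays, was at 0.15. Psmb2, another structural subunit, had a probe at -1.02 (limma adjusted p = 2.91e-06) and its brightest at 0.18. The Psmb2 fall lay at the 2-fold limit. It was inside the limit with the authors' values (-0.87) and without knockout array 1 (-0.96), wild-type array 1 (-0.99) or wild-type array 2 (-0.98).

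The inducible beta subunits Psmb8, Psmb9 and Psmb10 replace the standard protease subunits after interferon signalling and in immune cells, and shape the peptides shown to T cells. On their brightest probes all 3 genes were higher in the knockout pool, by less than 2-fold. Psmb9 read 486, 459 and 343 on the knockout arrays, against 316, 295 and 336 on the wild-type arrays. Every knockout array exceeded every wild-type array, array 3 by a small margin in raw intensity, and the log2 difference was 0.84 (SE 0.09, limma adjusted p = 1.21e-05), the highest value of any member. Psmb8 was 0.74 higher on probe 105220301, which read 676, 575 and 480.1 on the knockout arrays, against 437, 454 and 433 on the wild-type arrays. In Psmb10 both probes were higher, by 0.42 and 0.77, and after normalization neither overlapped between pools. Psmb8 also had a probe past the threshold the other way. Probe 100780427 read 163, 134 and 134 on the knockout arrays, against 348, 344 and 317 on the wild-type arrays and was above background on 1 knockout array, at -1.12 (limma adjusted p = 1.16e-06; -0.85 with the authors' values, inside the limit). A further Psmb8 probe exceeded background on 1 wild-type array alone, and no difference is given for it.

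Psmb9 and Psmb8 neighbour the peptide transporter genes Tap1 and Tap2 on chromosome 17, in the order Psmb9, Tap1, Psmb8 and Tap2 among coding genes. Psmb9 and Tap1 are read in opposite directions from a shared stretch, shown here because both genes had a positive difference at a limma adjusted p under 0.05. In RefSeq's GRCm38.p6 the 225 bases between their annotated starts, on the minus strand at chr17:34187331-34187555 and so read towards Psmb9, are the following, with capitals marking a CCAAT box on the opposite strand.
Psmb9: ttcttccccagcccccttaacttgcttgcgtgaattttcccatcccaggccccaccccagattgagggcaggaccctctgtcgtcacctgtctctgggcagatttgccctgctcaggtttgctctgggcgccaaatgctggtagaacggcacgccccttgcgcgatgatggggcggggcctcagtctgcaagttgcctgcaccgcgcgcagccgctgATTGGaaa
Tap1 read 202, 188 and 146 on the knockout arrays, against 169, 158 and 183 on the wild-type arrays, with 2 of 3 wild-type arrays above background, and differed by 0.42 (limma adjusted p = 0.00294). Tap2 was at 0.47. Knockout array 3 lay below the wild-type arrays for both transporter genes before normalization. Among 7 tested genes of interferon-induced antigen processing none passed the threshold, and the median of the 7 was 0.20. At an unadjusted limma p under 0.05, 2 were higher and 1 lower (29.7% and 18.1% of all genes were). The lower one was Tapbp, which exceeded background on all wild-type arrays and no knockout array. Its fall was at least 1.13-fold (limma adjusted p = 0.000697). B2m, the light chain of MHC class I, was at -0.11.

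Immune cells are rich in the inducible subunits, so leukocyte markers are given beside them. Of 9 leukocyte markers with a probe 5 were tested, none passed the threshold, and Coro1a (0.82) and Laptm5 (0.69) were higher at an adjusted limma p under 0.05. Of the others, Ptprc was at -0.07, Cd3g did not exceed background on any array, and Cd3e did so on 1 knockout array and no wild-type array, a bound of at least 1.06-fold higher (limma adjusted p = 0.0285). The summed raw intensity of all 5 was 3455 to 4919 on the knockout arrays against 3149.8 to 3322 on the wild-type arrays. Most of that sum came from Laptm5, with Coro1a next, so it adds little to their values. Probes of Cd4, Cd8a, Cd79a and Itgam were not above background on any array, and the brightest probe of Ptprc, the pan-leukocyte gene, was above it on 2 arrays of each pool. The part of leukocytes in the values of Psmb8, Psmb9 and Psmb10 was not tested.

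**Figure D2:**
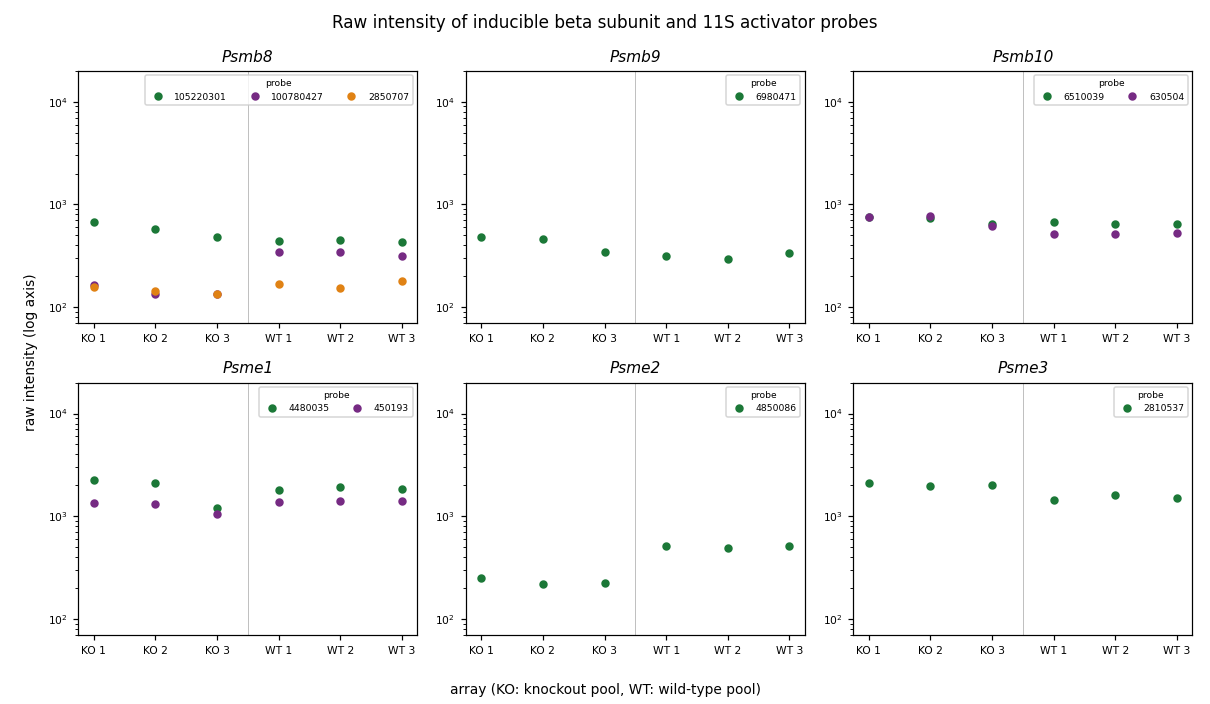
Raw intensity (y axis, log scale) on each of the 3 knockout arrays and the 3 wild-type arrays (x axis) for every probe of the inducible beta subunit genes Psmb8, Psmb9 and Psmb10 and the activator genes Psme1, Psme2 and Psme3, 1 colour per probe. Psmb9 lies between 343 and 486 on the knockout arrays and between 295 and 337 on the wild-type arrays, while Psme2 lies lower on the knockout arrays.

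Activators open the core without the 19S cap, and of their 4 tested genes 1 was past the threshold. Psme4, which encodes the large nuclear activator PA200, fell. Its bright probe read 382, 398 and 315 on the knockout arrays, against 1074, 957 and 1033 on the wild-type arrays, without overlap and with a log2 difference of -1.28 (SE 0.09, limma adjusted p = 4.37e-07); the other probe did not exceed background on any of the 6 arrays. Psme1 and Psme2 encode the alternating subunits of one interferon-inducible ring, and are given side by side. For Psme2 the arrays read 251, 219.9 and 223 on the knockout arrays, against 512, 491 and 509 on the wild-type arrays. Every knockout array was lower, and the difference of -0.88 (SE 0.10) stayed just inside the 2-fold limit. The brighter Psme1 probe read 2254, 2096 and 1197 on the knockout arrays, against 1810.4, 1912 and 1859 on the wild-type arrays; it overlapped between pools and was at 0.13 (0.30 without knockout array 3), and the other was at 0.03. Psme3, the nuclear PA28 gamma subunit, was 0.61 higher, with 2087, 1972 and 2002 on the knockout arrays, against 1441, 1615 and 1522 on the wild-type arrays.

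Among the 6 ATPase genes of the 19S cap, whose products pull substrates into the core, Psmc2 passed the threshold. It has a single probe, which read 434, 377 and 372 on the knockout arrays, against 1027, 952 and 844 on the wild-type arrays. The pools did not overlap, and the log2 difference was -1.03 (SE 0.10, limma adjusted p = 7.32e-06), at the limit; with the authors' values it was -0.94, inside it, as it was without knockout array 2 (-0.96) or wild-type array 1 (-0.97). Psmc5 had probes of opposite sign. Probe 6550021 read 5964, 5737 and 6029 on the knockout arrays, against 4747, 4970.0 and 4836 on the wild-type arrays, higher on every knockout array by 0.46 on average. Probe 2760315 read 686, 697 and 599 on the knockout arrays, against 1874, 1729 and 1742 on the wild-type arrays, lower on every knockout array (-1.25, limma adjusted p = 5.46e-07). The brightest ATPase probe, of Psmc4, read 6706, 6462 and 4707 on the knockout arrays, against 6764, 5968 and 6550.2 on the wild-type arrays and overlapped between pools (0.07). Psmc1 was at -0.41, Psmc3 at 0.28 and Psmc6 at -0.02.

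The non-ATPase subunits form the lid of the cap and part of its base. Of the 11 genes none was past the threshold by the brightest probe, and the median of the 11 was 0.20. At an unadjusted limma p under 0.05, 6 were higher and 2 lower (29.7% and 18.1% of all genes were). But 3 of the 11 had another probe that fell. The widest gap was in the lid subunit gene Psmd13. Its probe 6550672 read 172, 183 and 185 on the knockout arrays, against 1930.3, 1858 and 2024 on the wild-type arrays. Every knockout array was near the background limit and every wild-type array far above it, a 10.7-fold difference (log2 -3.41, SE 0.13, limma adjusted p = 3.61e-09). Probe 3450603 of the same gene read 6869, 6280.3 and 3944 on the knockout arrays, against 4980.2, 5012 and 4957 on the wild-type arrays. It was higher on knockout arrays 1 and 2 and lower on array 3 before normalization, and its fitted difference was 0.32 (limma adjusted p = 0.0296).

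Psmd7, a lid subunit that pairs with the deubiquitinase Psmd14, showed the same split. Probe 6220594 read 276, 279 and 265 on the knockout arrays, against 1731, 1783 and 1812 on the wild-type arrays, without overlap (-2.56, SE 0.11, limma adjusted p = 4.59e-09). The brightest probe read 4063, 3664 and 3369 on the knockout arrays, against 3575, 3398 and 3578 on the wild-type arrays, a log2 difference of 0.25. The remaining Psmd7 probe was 0.61 higher (limma adjusted p = 5.64e-05). In Psmd2, a scaffold of the base, probe 5050364 read 132, 118 and 109.5 on the knockout arrays, against 334, 289 and 324 on the wild-type arrays; no knockout array reached background there, and the fall was at least 1.90-fold (limma adjusted p = 1.6e-07), while the brightest probe, at 1774, 1761 and 1507 on the knockout arrays, against 1740.2, 1621 and 1645 on the wild-type arrays, was at 0.20. Psmd14 itself, which cuts ubiquitin chains off the substrate, had 1 probe at -0.19 (limma adjusted p = 0.129). The brightest of the group, Psmd3, a lid subunit, read 8534, 7971 and 6916 on the knockout arrays, against 6612, 6664 and 6708 on the wild-type arrays. It was higher on every knockout array, by 0.45 (SE 0.07, limma adjusted p = 0.00038). Psmd12 was at -0.56 and Psmd1 at 0.32.

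Assembly factors chaperone the rings while they are built. By their brightest probes none of 6 tested genes was past the threshold. At an unadjusted limma p under 0.05, 1 was higher and 2 lower (29.7% and 18.1% of all genes were). The 3 probes of Psmd10, which encodes the ATPase chaperone gankyrin, had negative differences, of -0.26 and -0.70 on the brighter ones. The dimmest, 1170576, read 123, 106 and 84.8 on the knockout arrays, against 218, 225 and 216 on the wild-type arrays. Its knockout values did not exceed background, and the fall was at least 1.26-fold (limma adjusted p = 1.79e-06; inside the 2-fold limit, at -0.72, with the authors' values). Psmd5, another ATPase chaperone gene, was at -0.65. Psmg1, a chaperone of the alpha ring and the brightest of the group, read 936, 912 and 625 on the knockout arrays, against 784, 836 and 741 on the wild-type arrays and was 0.32 higher.

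In the COP9 signalosome 8 genes were tested and Cops7a passed the threshold. Cops7a and Cops7b encode alternative versions of one subunit. Probe 3940458 of Cops7a read 279, 264 and 226 on the knockout arrays, against 736, 724 and 717 on the wild-type arrays, and probe 7000022 read 215, 204 and 196 on the knockout arrays, against 911, 864 and 871 on the wild-type arrays. Both fell on every knockout array, with log2 differences of -1.29 (SE 0.08, limma adjusted p = 1.3e-07) and -1.97 (SE 0.10, limma adjusted p = 1.59e-08). The remaining Cops7a probe exceeded background on 1 wild-type array alone, and no difference is given for it. For Cops7b the values overlapped between pools on both probes (0.16 and 0.15).

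Cops5, the subunit that removes NEDD8 and is also known as a binding partner of Jun, had 2 probes above background, neither past the test. The brightest signalosome probe, Cops5 5050215, read 2756, 2334 and 2198 on the knockout arrays, against 2826, 2999 and 2977 on the wild-type arrays, a log2 difference of -0.08 (limma adjusted p = 0.522), and the other was at -0.24. Cops4, a structural subunit, repeated the split of probes. Probe 4230497 read 164, 146 and 168 on the knockout arrays, against 457, 459 and 473 on the wild-type arrays, was above background on 2 knockout arrays and fell past the threshold (-1.43, limma adjusted p = 2.94e-06); the brightest probe, at 2363, 2399.5 and 2063 on the knockout arrays, against 2459, 2396 and 2389 on the wild-type arrays, was at 0.09. Cops8 was the highest of the complex at 0.58, and Cops6 was at -0.37.

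Disagreement between probes of one gene was common among these genes. Probes above background on all arrays of a pool numbered at least 2 in 17 member genes, and in 9 of them (52.9%) the highest and lowest log2 differences lay at least 1 apart, against 23.8% of 2256 genes. The gap was 3.74 in Psmd13 (SE 0.31), 3.18 in Psmd7, 1.91 in Psmb7, 1.86 in Psmb8, 1.72 in Psmb3, 1.71 in Psmc5, 1.59 in Psmd2, 1.51 in Cops4 and 1.20 in Psmb2. In each of these 9 genes the probe at the low end was past the threshold and the brightest probe, chosen by its mean over both pools, was not. The next gene, Psmd10, lay at 0.83, and the smallest gap was 0.01, in Cops7b. With the authors' values the same rule of 1 log2 unit was met by 9 genes, and the Psmd13 gap was 3.36. That choice of probes admits a dim probe through the pool in which it is high, as with the fallen probes of Psmd2, Psmb8, Cops4 and Psmd10, whose gaps are fitted values that depend on the offset. Restricted to probes above background on all 6 arrays, 14 member genes remained and 6 of them (42.9%) lay at least 1 apart, against 16.2% of 1466 genes. Where the probes lie in the transcripts was not analysed here. The plot of raw intensities of the 9 genes shows the split array by array.

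**Figure D3:**
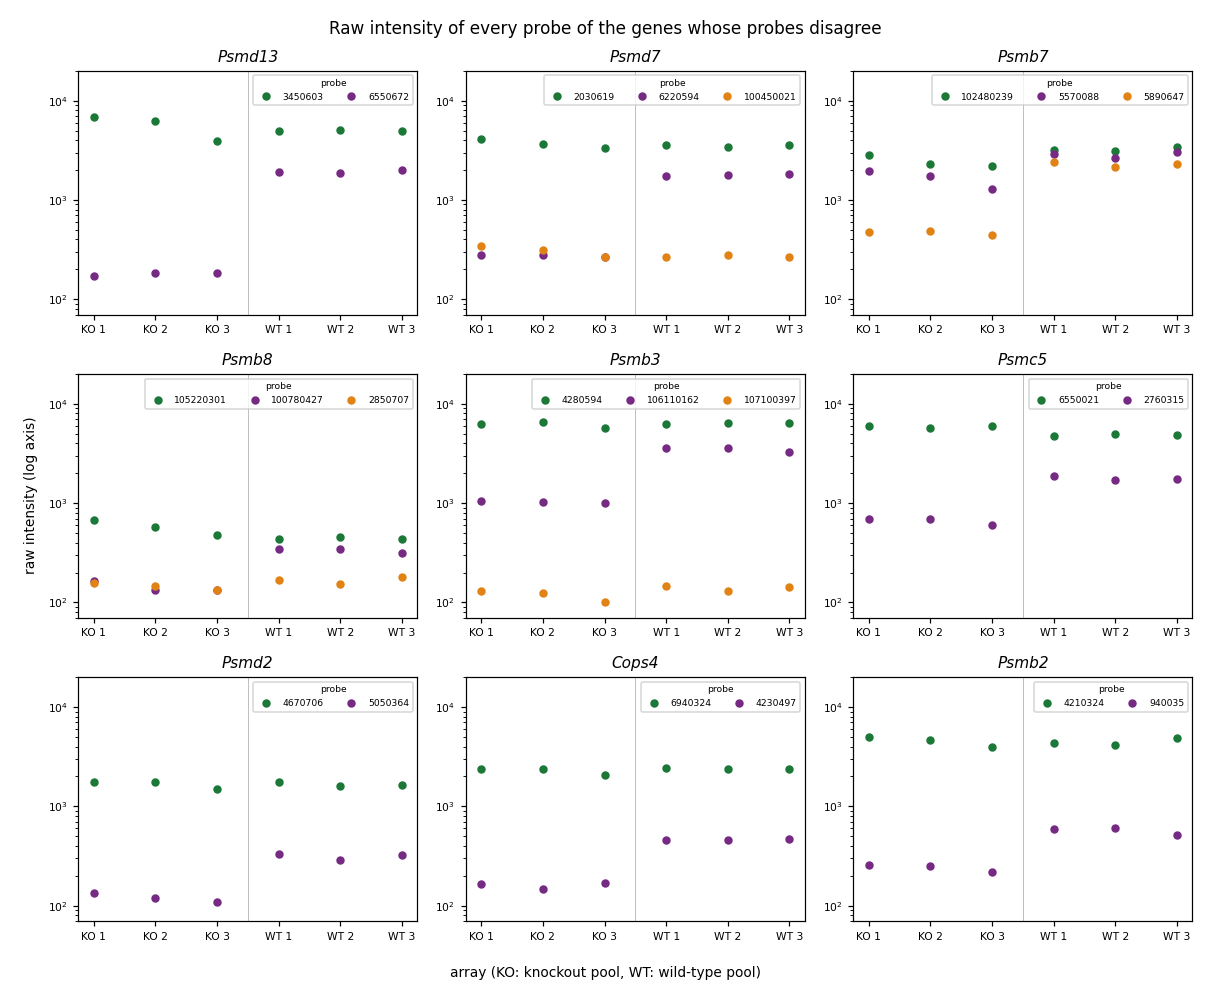
Raw intensity (y axis, log scale) on each of the 3 knockout arrays and the 3 wild-type arrays (x axis) for every probe of the 9 genes whose probes differed by at least 1 on the log2 scale, 1 colour per probe. In Psmd13 the purple probe lies between 172 and 185 on the knockout arrays and between 1858 and 2024 on the wild-type arrays, while the green probe lies between 3944 and 6869 on the knockout arrays and between 4957 and 5012 on the wild-type arrays.

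Other listed genes that partner or regulate these complexes were mostly inside the limit. Of 38 tested genes, 7 of them the antigen processing genes above, 1 fell on its brightest probe (2.63%, beside the 2.48% of all genes given above) and none rose. At an unadjusted limma p under 0.05, 14 were higher (29.7% of all genes were). Lower at that p were 3 proteasome partners, 1 VCP partner, 4 signalosome, neddylation and cullin genes and 1 antigen processing gene (18.1% of all genes were). The fall was in Nfe2l2, which encodes NRF2, an activator of antioxidant response genes and of proteasome genes under oxidative stress. It read 180.5, 187 and 159.5 on the knockout arrays, against 647, 669.5 and 734 on the wild-type arrays, without overlap (-1.86, SE 0.10, limma adjusted p = 3.19e-08). Nfe2l1, whose product raises proteasome genes when the proteasome is inhibited, was at 0.45, with 3304, 3117 and 1892 on the knockout arrays, against 2260.5, 2264 and 2237 on the wild-type arrays. Before normalization knockout array 3 lay below the wild-type arrays there, and arrays 1 and 2 above them.

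On other probes 4 more of these genes fell, again beside a bright probe within the limit, which makes 5 of 38 by any probe (13.2%, beside the 5.38% of all genes). Ubqln1, a shuttle that carries tagged proteins to the cap, had 3 probes at background throughout the knockout pool, bounded at 1.50-fold, 1.76-fold and 2.04-fold lower or more, while its brightest probe was at 0.43. The deubiquitinase gene Uchl5 had a probe at -1.22 and its brightest at 0.29. For the NEDD8 pathway genes Nae1 and Ube2f these values were -1.22 and -0.09, and -1.30 and -0.32. Gps1, the remaining signalosome subunit gene, was at 0.10, and Pomp, which encodes the maturation factor of the core, at 0.12.

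Because Nfe2l2 fell, the core of the antioxidant response element, TGACNNNGC on either strand, was looked up in RefSeq promoters of GRCm38.p6, each from 250 bases before to 50 after a gene's start. Promoters were found for 47 of the 56 member genes, 52 sequences in all, and 7 of them (13.5%) held the core, against 12.4% of 32851 promoters. These are the matches with their neighbouring bases, read in the direction of the gene, with the core in capitals; some appear as the complement.
Psmd9 (chr5:123228139-123228187, plus strand): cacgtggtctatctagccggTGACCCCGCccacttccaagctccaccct
Cops7a (chr6:124965421-124965469, minus strand): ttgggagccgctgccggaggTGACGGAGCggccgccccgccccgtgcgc
Psme4 (chr11:30771758-30771786, plus strand): cgctgcggctGCAGCGTCAccagaagagc
Psmb6 (chr11:70525328-70525356, plus strand): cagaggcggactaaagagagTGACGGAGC
Psmd12 (chr11:107479278-107479309, plus strand): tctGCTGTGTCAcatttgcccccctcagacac
Psmc6 (chr14:45329577-45329625, plus strand): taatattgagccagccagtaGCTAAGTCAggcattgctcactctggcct
Psmb5 (chr14:54618014-54618062, minus strand): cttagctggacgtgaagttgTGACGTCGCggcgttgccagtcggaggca
The members' share was close to that of all promoters, and the brightest probes of these genes lay on both sides of 0: -1.29 in Cops7a and -1.28 in Psme4, -0.56 in Psmd12, -0.29 in Psmd9, -0.02 in Psmc6, 0.01 in Psmb6 and 0.50 in Psmb5. The full cAMP response element TGACGTCA, the site bound by ATF and CREB factors, was in none of the 52 sequences and in 1.79% of all. The AP-1 site TGANTCA, which can overlap the antioxidant core, was in 3 (5.77%, against 7.81% of all). The core of the interferon-stimulated response element, GAAA repeated after any pair of bases, was in 4 (7.69%, against 3.44% of all), those of Psmb3, Psmd4, Psmd9 and Psme1, and the CCAAT box in 17 (32.7%, against 37.4% of all). All motifs were searched on both strands. Each match is a run of letters and was not tested as a binding site.

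The authors also deposited log2 values of the same arrays, and all 78 tested member probes had the same sign there. All 15 probes past the threshold were smaller in size with those values, and 11 of them were still at least 1 below 0. The plot of both sets of differences sets them side by side.

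**Figure D4:**
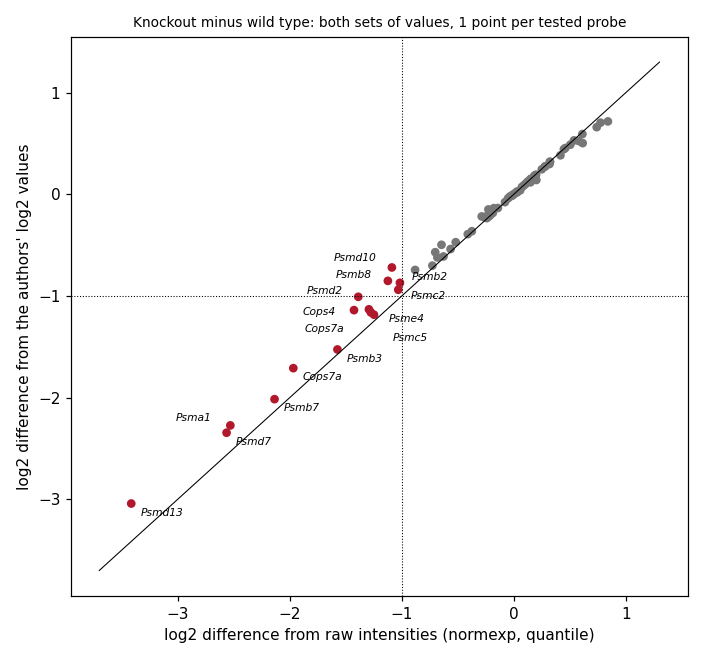
Log2 difference between the knockout and the wild-type pool for the 78 tested member probes, from background-corrected raw intensities (x axis) and from the authors' deposited log2 values (y axis); the solid line marks equal values and the dotted lines a difference of -1. The 15 probes past the threshold are in red with their gene, and 4 of them, of Psmb2, Psmb8, Psmc2 and Psmd10, lie above -1 on the y axis.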

How the data were processed

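The deposited array files list unnormalized probe intensity, linear in scale, as read per the file headers; they hold no detection p-values. The submitters' processing notes name BeadStudio 3, and no further step is stated there. The authors' deposited table of log2 values has the rank order of the raw intensities on each array (Spearman correlation 1) and a common distribution; its scale and centring are otherwise unstated. It was used as an alternative.

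For this report, normexp (limma, offset 50) removed background from the raw values, then log2 was taken and quantiles were equalised between arrays. A larger offset gives smaller differences for dim probes. limma 3.58.1 in R 4.3.3 (lmFit, eBayes with an intensity trend) was fitted to the 23058 probes with a mean above the median of all 46116, with Benjamini-Hochberg adjustment; p-values are two-sided. A member probe above background on no array of a pool is given as a bound where the other pool's mean exceeds the floor, and otherwise with no difference: the mean of the brighter pool is set against a floor for the dimmer one, which on each array is the lowest value of any probe above background or the probe's own value if higher. The number of arrays limits the precision.

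Of the probes 29534 had 1 symbol in GEO's platform annotation, 11 several and 16571 none. The symbols of all 92 member probes were the same through Entrez identifiers in RefSeq (GRCm38.p6). Genes named are those with a probe past the threshold, 11 chosen for their role, the brightest of each structural group and those with disagreeing probes; a few more are given by value only. The members, lists and the background rule were chosen with earlier results of these data known. The fit was tested on simulated arrays, with changes larger than the 2-fold limit in probes well above background. That test does not bear on calls near the limit, on dim probes or on differences between mice. Alternatives changed the background correction, normalization, probe filter, arrays and the probe that stands for a gene.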

Additional observations from a re-analysis of the deposited data

How the results depend on the processing

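Counts of member genes and probes past the threshold stayed within 1.5 times the reported ones under most settings. The exceptions were the count of lower genes, 14 in place of 4 when any tested probe was counted, and the count higher, 1 gene and 1 probe in place of 0 when each array's background mode was subtracted with a floor of 50. That setting was chosen after seeing the data; the rise was Psmb9 (1.14). It gave 6 lower genes and 17 lower probes: Psme2 (-1.23), Psmd5 (-1.31) and a brighter Psmd10 probe (-1.09) were past the limit, and the dimmest Psmd10 probe was not. Over all probes it gave 728 higher and 1293 lower, against 227 and 899 as reported and 137 and 611 with the authors' values. The members' median log2 difference was 0.14 after scaling to the 75th percentile, where the median of all genes was 0.13 in place of 0.08, and it turned to -0.11 with the mean over the tested probes of a gene in place of the brightest, which brings in the fallen probes. No median of all genes under that averaging is given here, so whether the turn is particular to the members was not tested. With single arrays left out, 3 to 4 genes and 13 to 15 probes were lower, 0 were higher, and the median ran from 0.0657 to 0.114. Psmb6 turned sign without single arrays (-0.0456 to 0.11), never past the test. Same-numbered arrays of the pools share only a number (correlations of their deviations 0.106, -0.13 and 0.0434 for numbers 1, 2 and 3); with the replicate number as a block 4 genes and 15 probes were lower and no call of a named probe changed. Of 650 values of named probes under alternatives 625 kept their direction and their side of the threshold. The calls lost with the authors' values, an offset of 100 or no background correction were those of Psmb2, Psmb8, Psmc2 and Psmd10; Psmb2 and Psmc2 were also inside the limit without some arrays (lowest sizes -0.96 and -0.957). Dim probes close to background, such as those of Psmd2 and Psmd10, allow only bounds.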
